A study of Mus musculus with 37 samples.

Results

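The phase II conjugation enzymes join a small polar group to drugs, hormones, bile acids and products of lipid oxidation, so that the conjugates can be carried out of the cell. They were followed here as 66 protein-coding genes of the 55536 genes in the count tables. These were 24 glutathione transferases, 21 UDP-glucuronosyltransferases and 21 sulfotransferases, chosen by gene symbol in the GENCODE M21 annotation. The symbol pattern given for the set (Gsta, Gstk, Gstm, Gsto, Gstp, Gstt, Mgst, Ugt and Sult followed by numbers) took in 45 genes and no UDP-glucuronosyltransferase, because those symbols carry a letter after the first number, as in Ugt2b38. The 21 Ugt1a, Ugt2a, Ugt2b and Ugt3a genes were added, since glucuronide formation is named as part of the set.

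Glutathione transferases attach the tripeptide glutathione to reactive compounds. The cytosolic classes alpha (Gsta), mu (Gstm), pi (Gstp), theta (Gstt) and omega (Gsto), the kappa class of mitochondria and peroxisomes (Gstk1) and the membrane-bound Mgst enzymes are separate branches. UDP-glucuronosyltransferases of the endoplasmic reticulum transfer glucuronic acid from UDP-glucuronate, and cytosolic sulfotransferases transfer sulfate from the donor PAPS. Hepatocytes are the main site of all of these reactions, and in mice several of the genes are known to differ between male and female liver.

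The series holds RNA sequencing of liver and cortex, taken from mice at an age of 10 months, to find the expression changes that follow TMEM106B deficiency and the TDP-43 Q331K mutation. The genotypes were TMEM106B-/-TDP-43Q331K (called the combined genotype below), TMEM106B-/- (without TMEM106B, a protein of lysosomal membranes), TDP-43Q331K (a knock-in of a mutation linked to motor neuron disease in Tardbp, which encodes the RNA-binding protein TDP-43) and WT. Liver had 4 libraries of each genotype. Cortex had 5, 5, 6 and 5 libraries in that order. No tissue-limited promoter or Cre is named in the labels, so the alleles are taken as carried by all cells, and the zygosity of the knock-in, the strain and the sex are not given in the labels.

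Liver libraries held 50.5 to 74.1 M counts and cortex libraries 28.8 to 46.3 M counts. The 8 hepatocyte markers were all expressed in liver, and their summed level was 98978 to 131607 counts per 1 M (CPM) in the combined genotype, 118207 to 140420 in TMEM106B-/-, 103993 to 129836 in TDP-43Q331K and 107713 to 129461 in WT. The 6 neuron markers were expressed in every cortex group. Every library carried the Y-linked transcript Ddx3y (at least 46.0 CPM in liver and 40.4 CPM in cortex), and Xist reached at most 0.389 CPM in liver and 0.289 CPM in cortex. Tmem106b RNA was not lower in the libraries labelled with its loss. It averaged 135.1 ± 9.15 CPM in livers of the combined genotype, 115.3 ± 9.32 in TMEM106B-/-, 91.9 ± 21.3 in TDP-43Q331K and 96.5 ± 16.3 in WT (SD, n = 4 each), so every direction given here for TMEM106B loss rests on the labels. In 3 livers (combined genotype replicate 1, TMEM106B-/- replicate 4 and WT replicate 2) the acute phase transcript Saa1 stood at 2325, 2550 and 2159 CPM, against at most 354.0 CPM in the other livers.

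The sequences just upstream of the RefSeq starts of a few genes are shown first because these genes carry the main results: the neighbouring Gstp1, Gstp2 and Gstp3, of which the first and the third changed in opposite directions in liver, and Gstk1, Ugt2b38 and Sult1e1, which had the largest or clearest changes of their families. They are RefSeq windows of build GRCm38.p6, read 5′ to 3′ on the gene's strand and ending at the RefSeq start. The windows of Gstp1 and Gstp2 are cut short where protein-coding GENCODE transcripts already begin. By the GENCODE gene ranges the Gstp2 window lies inside its gene (4040285 to 4046023), and the Gstp3 window lies partly inside its gene (4057477 to 4059569). Capitals mark the motifs found, on either strand, of 6 that were searched: TGANTCAGC (the site of NRF2 with small Maf proteins), TGACNNNGC (the core of the antioxidant response element, which overlaps the first where its N is C), TTCNNNGAA (STAT factors), AGGTCA, the core hexamer of nuclear receptor sites, TATAAA, which positions the start of transcription, and GGGCGG, the GC box bound by SP1. The ranges are chr19:4037962-4038162 (minus strand) for Gstp1, chr19:4042240-4042471 (minus) for Gstp2, chr19:4059448-4059697 (minus) for Gstp3, chr6:42245685-42245934 (plus) for Gstk1, chr5:87424204-87424453 (minus) for Ugt2b38 and chr5:87591612-87591861 (minus) for Sult1e1.
Gstp1: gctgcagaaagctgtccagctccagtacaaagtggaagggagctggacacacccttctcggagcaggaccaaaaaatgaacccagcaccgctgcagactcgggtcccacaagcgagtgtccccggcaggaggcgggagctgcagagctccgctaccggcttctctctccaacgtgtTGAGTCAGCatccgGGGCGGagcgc
Gstp2: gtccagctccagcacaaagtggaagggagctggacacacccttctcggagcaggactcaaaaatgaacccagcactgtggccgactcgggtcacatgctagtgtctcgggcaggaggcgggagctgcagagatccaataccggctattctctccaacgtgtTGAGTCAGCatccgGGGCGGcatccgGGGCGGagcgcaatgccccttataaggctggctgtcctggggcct
Gstp3: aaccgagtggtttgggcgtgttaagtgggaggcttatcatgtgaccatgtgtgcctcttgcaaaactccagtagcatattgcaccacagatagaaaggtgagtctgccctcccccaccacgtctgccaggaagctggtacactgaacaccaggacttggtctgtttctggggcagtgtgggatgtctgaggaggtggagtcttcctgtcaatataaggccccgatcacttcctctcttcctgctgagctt
Gstk1: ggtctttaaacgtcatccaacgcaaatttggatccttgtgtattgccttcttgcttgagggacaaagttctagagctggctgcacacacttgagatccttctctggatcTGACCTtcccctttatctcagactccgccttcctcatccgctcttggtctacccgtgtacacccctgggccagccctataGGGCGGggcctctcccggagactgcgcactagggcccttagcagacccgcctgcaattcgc
Ugt2b38: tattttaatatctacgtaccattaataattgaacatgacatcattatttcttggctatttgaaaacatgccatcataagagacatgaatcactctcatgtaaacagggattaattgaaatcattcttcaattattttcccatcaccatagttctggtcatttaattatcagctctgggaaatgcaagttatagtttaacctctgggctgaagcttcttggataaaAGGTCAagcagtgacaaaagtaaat
Sult1e1: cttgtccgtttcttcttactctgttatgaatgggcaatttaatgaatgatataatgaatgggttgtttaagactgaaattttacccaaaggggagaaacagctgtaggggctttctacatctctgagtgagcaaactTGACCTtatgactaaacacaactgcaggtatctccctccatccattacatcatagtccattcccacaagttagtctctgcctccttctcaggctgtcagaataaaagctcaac

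The 250-base windows of Gstp1 and Gstp2 were identical at 207 of 265 aligned positions (78.1%), and both held TGAGTCAGC followed by a GC box. The window of Gstp3 was identical to that of Gstp1 at 50.0% of aligned positions, and none of the 6 motifs was found in it. TGANTCAGC was present in 1.02% of the 32851 windows of all genes, and TGACNNNGC in 10.2%. The search for TGANTCAGC was added after these sequences were seen, so its presence in Gstp1 and Gstp2 is not set against that share. AGGTCA, found in the windows of Gstk1, Ugt2b38 and Sult1e1, was present in 14.0% of all windows, and GGGCGG in 32.7%. A match describes the letters of the window and not a bound site.

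In liver 49 of the 66 genes passed the filter on low counts (23 glutathione transferases, 17 UDP-glucuronosyltransferases and 9 sulfotransferases), and in cortex 21 did (17, 1 and 3). Of these, 19 passed in both tissues, and 15 genes passed in neither. No count was seen in any library for 6 genes in liver and for 15 in cortex. Where such a gene has no sequence in common with other genes (Sult1c1 in liver, and Ugt2b1, Sult1b1 and Sult1e1 in cortex), a count of 0 allows at most 0.003 CPM in liver and 0.004 CPM in cortex by counting error alone. For the others no limit is given, because reads that also match another gene may not have been counted, as with Ugt2a1, which shares 98.8% of its exon bases with overlapping genes on the same strand. Levels of different genes are compared below as CPM per kb of exon. The divisor is the length of all annotated exons of a gene together, so the order and the shares of genes depend on the annotation. For Gsta3 it was 4344 bases, where the protein-coding transcripts hold 1739 different stretches of 50 bases.

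In WT liver the most abundant glutathione transferases were Gstp1 (1647 CPM per kb), the membrane-bound Mgst1 (1335), Gstm1 (670.1), Gsta3 (304.8) and Gstt1 (158.7). Among UDP-glucuronosyltransferases Ugt2b5 (541.3 CPM per kb), Ugt2b36 (291.3) and Ugt2b1 (113.7) led, enzymes of the branch that conjugates steroids and bile acids. The leading sulfotransferases were Sult1a1, the main phenol sulfotransferase (177.7 CPM per kb), Sult2a8, which sulfates bile acids in mouse liver (167.4), and Sult1d1 (40.5). In WT cortex the order was different. Gstm1 (51.4 CPM per kb), Gstm5 (44.1) and Mgst3 (43.1) led the glutathione transferases, ahead of Gstp1 (31.6) and Gsta4 (10.3). Sult4a1, a brain sulfotransferase with no settled substrate, stood at 126.5 CPM per kb, against 2.47 for Sult1a1 and 1.96 for Sult2b1, the cholesterol sulfotransferase. The single UDP-glucuronosyltransferase that passed the filter in cortex, Ugt1a7c, stood at 0.0757 CPM per kb.

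**Figure D1:**
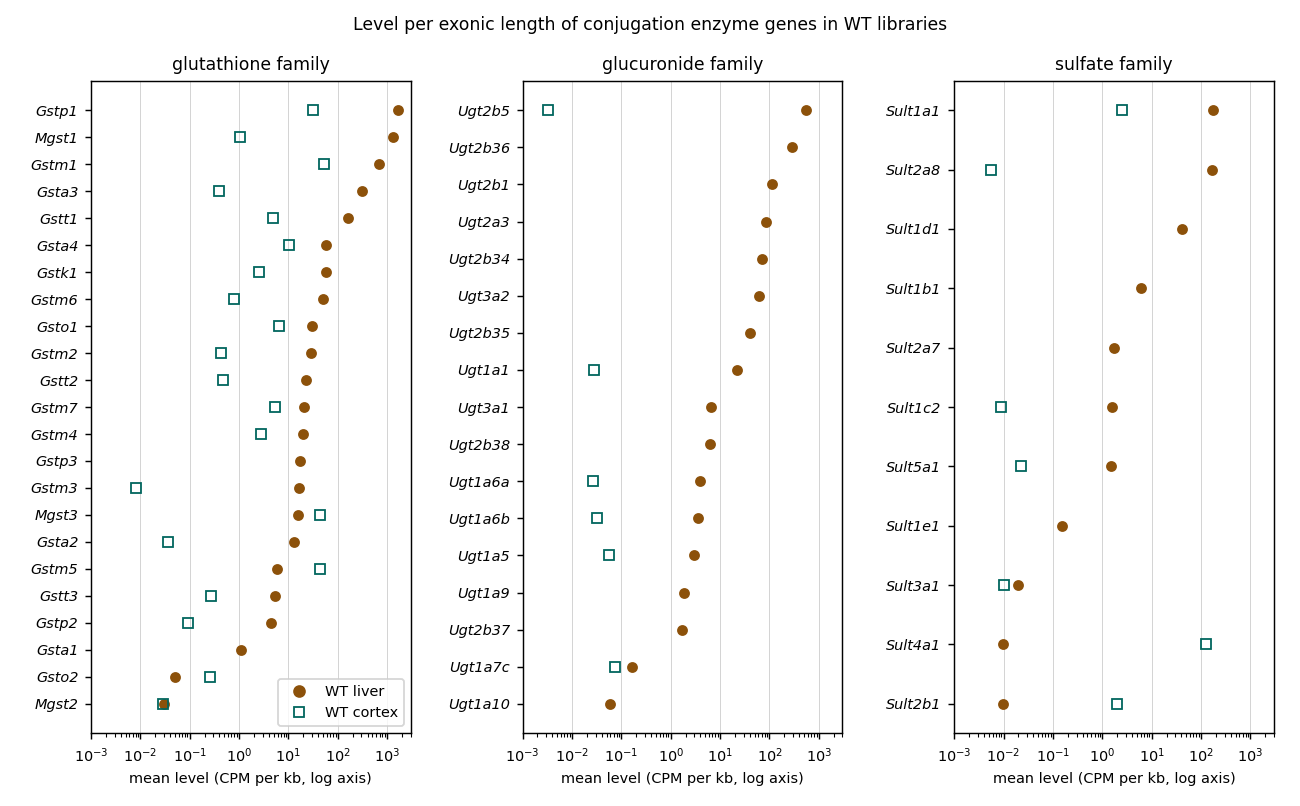
Mean level of each gene in WT liver (n = 4) and WT cortex (n = 5), in CPM per kb of exon on a log axis, with a panel for each family. Gstp1 and Mgst1 top the glutathione panel in liver, Gstm1 and Gstm5 in cortex, and Sult4a1 (126.5 CPM per kb) stands alone among the cortical sulfotransferases.

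In liver the summed level of the glutathione transferases moved less than the sums of their pi and mu classes did. Summed over the 24 glutathione transferases, liver levels were 4456 ± 374.7 CPM per kb in the combined genotype, 4178 ± 479.6 in TMEM106B-/-, 4487 ± 377.7 in TDP-43Q331K and 4481 ± 293.4 in WT (SD, n = 4 each). Within that sum the pi class made up 11.4 ± 1.48% in the combined genotype, 19.8 ± 5.44% in TMEM106B-/-, 28.8 ± 3.94% in TDP-43Q331K and 37.3 ± 2.49% in WT. The pi class share did not overlap between the combined genotype (9.89 to 13.1%) and WT (35.7 to 41.0%). The mu class made up 29.3 ± 4.93% in the combined genotype, 25.7 ± 4.32% in TMEM106B-/-, 21.1 ± 1.22% in TDP-43Q331K and 18.0 ± 2.73% in WT, and the Mgst class 39.0 ± 4.93%, 34.4 ± 2.39%, 33.4 ± 1.72% and 30.2 ± 1.96% in the same order. These sums and shares are dominated by the most abundant genes and were not tested.

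Summed UDP-glucuronosyltransferase levels in liver were 1042 ± 113.9 CPM per kb in the combined genotype, 992.2 ± 141.7 in TMEM106B-/-, 1145 ± 179.9 in TDP-43Q331K and 1256 ± 173.9 in WT. Ugt2b genes held 80.8%, 79.0%, 81.6% and 84.9% of those sums. Summed sulfotransferase levels were 396.5 ± 52.8 CPM per kb in the combined genotype, 506.6 ± 104.6 in TMEM106B-/-, 441.5 ± 24.8 in TDP-43Q331K and 396.5 ± 25.9 in WT, and the Sult1 genes held 66.3%, 67.6%, 64.3% and 57.0% of them in that order.

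Against WT, livers of the combined genotype showed the widest change. Of the 49 tested genes 14 rose and 2 fell (edgeR, Benjamini-Hochberg adjusted p under 0.05), where 4.19% of all 16710 tested genes rose and 2.85% fell (7.04% either way). Sult3a1 is in this count, although it passed the filter on low counts only through libraries labelled with TMEM106B loss, where it is high. Among the 23 glutathione transferases 11 rose and 1 fell, with a median log2 fold change of 0.61. Of the 17 UDP-glucuronosyltransferases 1 rose and 1 fell (median -0.06), and of the 9 sulfotransferases 2 rose (median 0.66). The median over the 49 genes was 0.48, against -0.03 over all genes tested.

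TMEM106B-/- livers had 6 genes that rose and 1 that fell against WT, where 0.688% of all tested genes rose and 0.365% fell (1.05% either way). The glutathione transferases again held most of them, 5 that rose and 1 that fell (median log2 fold change 0.37). The other was Sult1b1. No UDP-glucuronosyltransferase was called by edgeR, with 4 of 17 at an unadjusted p under 0.05. The median over the 49 genes was 0.32, against 0.0 over all genes. In TDP-43Q331K livers 2 genes rose against WT and none fell (median 0.15), where 0.156% of all tested genes rose and 0.108% fell (0.263% either way). Of the 49 genes 14 had an unadjusted p under 0.05. Counts at an unadjusted p, in this paragraph and below, are at another threshold than these shares. The share of all genes at that threshold is not given, so such counts are not read as results about the members. The 3 comparisons share the same 4 WT libraries.

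**Figure D2:**
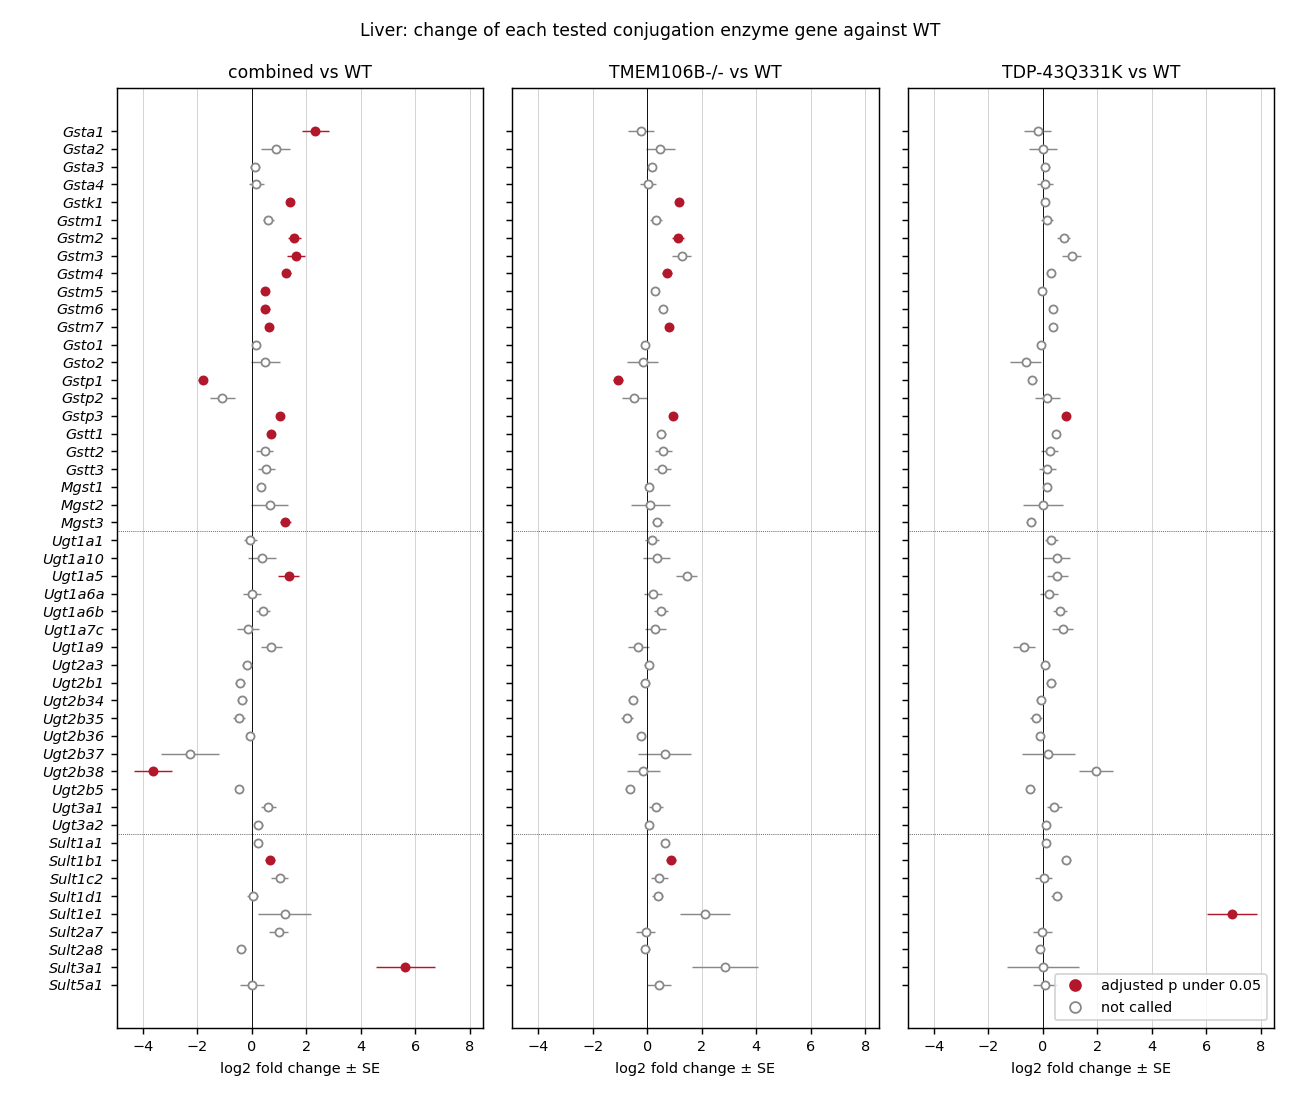
Log2 fold change against WT of the 49 genes tested in liver, with SE bars, in the combined genotype (TMEM106B-/-TDP-43Q331K), TMEM106B-/- and TDP-43Q331K (4 libraries per genotype), and filled red points for an adjusted p under 0.05. Called points number 16 in the combined genotype, 7 in TMEM106B-/- and 2 in TDP-43Q331K, and most lie right of 0. The 16 include Sult3a1, which passed the filter on low counts only through libraries labelled with TMEM106B loss, where it is high.

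The pi class showed the plainest pattern of the liver glutathione transferases. Gstp1 (ENSMUSG00000060803, GRCm38 chromosome 19, 4035407 to 4037985, minus strand), the pi class enzyme known to be higher in male than in female mouse liver, had 562.3, 762.3, 737.8 and 856.3 CPM in the combined genotype, 1042, 935.5, 1498 and 1343 CPM in TMEM106B-/-, 1472, 1871, 2045 and 2437 CPM in TDP-43Q331K and 2628, 2628, 2587 and 2357 CPM in WT livers. All livers of the combined genotype lay under all other livers, and those of TMEM106B-/- lay under all WT livers, while TDP-43Q331K and WT overlapped. Gstp1 was 3.49-fold lower in the combined genotype than in WT (log2 fold change -1.81 ± 0.18, SE, adjusted p = 1.62e-05) and 2.12-fold lower in TMEM106B-/- than in WT (-1.08 ± 0.17, adjusted p = 0.00556). Against TDP-43Q331K livers it was lower in the combined genotype as well (-1.42 ± 0.17, adjusted p = 0.000183). The values were -0.38 ± 0.17 (adjusted p = 0.303) for TDP-43Q331K against WT and -0.72 ± 0.17 (adjusted p = 0.0541) for the combined genotype against TMEM106B-/-, neither of which was called. The interaction, which is the difference between the change with TMEM106B loss on the TDP-43Q331K background and that on the WT background, was -0.34 ± 0.24 (adjusted p = 0.51).

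Gstp3 (chromosome 19, 4057477 to 4059569, minus strand), a pi class gene next to Gstp1 and Gstp2, went the other way. It had 28.0, 39.2, 32.3 and 29.2 CPM in the combined genotype, 29.9, 29.4, 37.6 and 23.3 CPM in TMEM106B-/-, 29.1, 26.7, 31.4 and 26.5 CPM in TDP-43Q331K and 18.1, 13.0, 15.6 and 16.0 CPM in WT. Every mutant liver lay above every WT liver. It rose by 1.04 ± 0.14 in the combined genotype (adjusted p = 0.000383), by 0.94 ± 0.14 in TMEM106B-/- (adjusted p = 0.00378) and by 0.86 ± 0.14 in TDP-43Q331K (adjusted p = 0.0219), on the log2 scale against WT. The last call was lost when WT replicate 2 or 3 or TDP-43Q331K replicate 1 or 4 was left out, with adjusted p up to 0.0943. The interaction was not called (-0.76 ± 0.20, adjusted p = 0.0938). Per kb of exon Gstp3 is a minor transcript beside Gstp1.

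Gstp2 (chromosome 19, 4040285 to 4046023, minus strand) lies between them and had 1.41, 2.5, 4.06 and 1.19 CPM in the combined genotype and 4.96, 4.9, 4.76 and 4.82 CPM in WT. Its log2 fold change was -1.08 ± 0.47 (adjusted p = 0.18). Gstp1 shared 51.0% of its 50-base transcript stretches with other genes, mostly Gstp2, and Gstp2 shared 50.4%, so the counts of this pair may be split between them, while Gstp3 shared none.

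Gstk1 (ENSMUSG00000029864, GRCm38 chromosome 6, 42245935 to 42250447, plus strand), the kappa class enzyme, had the smallest p-value of the 49 tested genes in the combined genotype against WT. It had 219.7, 189.1, 224.6 and 242.8 CPM in the combined genotype, 211.6, 200.2, 192.0 and 145.0 CPM in TMEM106B-/-, 88.7, 88.8, 88.6 and 85.0 CPM in TDP-43Q331K and 88.7, 72.5, 78.6 and 92.1 CPM in WT. The libraries labelled with TMEM106B loss lay above all others with a wide gap, whichever Tardbp allele they carried. Gstk1 was 2.64-fold higher in the combined genotype than in WT (1.40 ± 0.12, adjusted p = 3.66e-06), 2.26-fold higher in TMEM106B-/- than in WT (1.17 ± 0.12, adjusted p = 9.53e-05) and, set against TDP-43Q331K, 2.5-fold higher in the combined genotype (1.32 ± 0.12, adjusted p = 8.75e-06). TDP-43Q331K against WT gave 0.08 ± 0.12 (adjusted p = 0.792), and the interaction was 0.15 ± 0.17 (adjusted p = 0.709). In cortex Gstk1 averaged 3.77 ± 0.289 CPM in the combined genotype and 3.61 ± 0.626 CPM in TMEM106B-/- (SD, n = 5 each), against 3.79 ± 0.399 CPM in WT (n = 5), and all groups overlapped. Gstk1 lies 29.2 Mb from Tmem106b on the same chromosome, and DNA carried along with the targeted allele cannot be told apart from loss of the gene in these groups.

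The mu class genes lie side by side on chromosome 3, between 107895821 and 108044894, in the order Gstm5, Gstm7, Gstm6, Gstm3, Gstm2, Gstm1 and Gstm4. Of these 7 genes 6 rose in livers of the combined genotype against WT (median log2 fold change 0.64), where 4.19% of all tested genes rose. In TMEM106B-/- against WT 3 rose (median 0.72), where 0.688% of all tested genes rose. In TDP-43Q331K none was called by edgeR, with 6 above 0, 4 at an unadjusted p under 0.05 and a median of 0.36. Gstm2 had 115.1, 146.1, 185.8 and 111.3 CPM in the combined genotype, 74.8, 172.7, 100.1 and 68.4 CPM in TMEM106B-/-, 71.0, 82.4, 86.9 and 83.3 CPM in TDP-43Q331K and 44.6, 47.0, 52.2 and 46.0 CPM in WT. Every mutant liver was above every WT liver. Its log2 fold change was 1.56 ± 0.24 in the combined genotype (adjusted p = 0.000884), 1.13 ± 0.23 in TMEM106B-/- (adjusted p = 0.0294) and 0.77 ± 0.23 in TDP-43Q331K, where the adjusted p of 0.162 missed the threshold. The TMEM106B-/- call was lost in 7 of 15 alternatives, among them each of the 4 WT livers left out (adjusted p up to 0.137), and the combined genotype call in none.

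Gstm4 had 74.3, 96.8, 93.1 and 65.0 CPM in the combined genotype, 44.2, 62.7, 65.8 and 51.8 CPM in TMEM106B-/-, 49.2, 43.8, 35.4 and 37.9 CPM in TDP-43Q331K and 43.7, 32.3, 30.0 and 30.3 CPM in WT. The combined genotype was highest, with no overlap with TDP-43Q331K or WT. Gstm4 was 2.42-fold higher there than in WT (1.27 ± 0.17, adjusted p = 0.00027) and 1.98-fold higher than in TDP-43Q331K (0.99 ± 0.17, adjusted p = 0.00302), and 0.72 ± 0.17 higher in TMEM106B-/- than in WT (adjusted p = 0.0452), a call lost in 8 of 15 alternatives, the replicate block among them (adjusted p up to 0.139). Gstm3 was 3.08-fold higher in the combined genotype than in WT (1.62 ± 0.34, adjusted p = 0.0107), with 42.9, 70.2, 99.4 and 46.5 CPM against 24.3, 19.3, 25.0 and 15.5 CPM. It had 31.1, 88.5, 49.7 and 32.0 CPM in TMEM106B-/- and 36.2, 46.6, 36.0 and 56.9 CPM in TDP-43Q331K. Every mutant liver thus lay above every WT liver for Gstm3, though edgeR called neither of these genotypes against WT. Gstm7 rose by 0.64 ± 0.13 in the combined genotype (adjusted p = 0.00527) and by 0.79 ± 0.13 in TMEM106B-/- (adjusted p = 0.00567). Gstm5 and Gstm6 each rose by 0.50 in the combined genotype (SE 0.14 and 0.15, adjusted p = 0.0348 and 0.0477), and these calls were lost in 9 and 6 of 15 alternatives, with adjusted p up to 0.0964 for Gstm5 and 0.141 for Gstm6. Gstm1, the most abundant mu class gene, was at 1512 ± 373.3 CPM in the combined genotype and 987.1 ± 228.5 CPM in WT, and its 0.61 ± 0.21 was not called (adjusted p = 0.0799). Gstm3 shared 28.8% and Gstm1 19.9% of their 50-base stretches with other genes, Gstm2 8.3% and Gstm4 none.

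**Figure D3:**
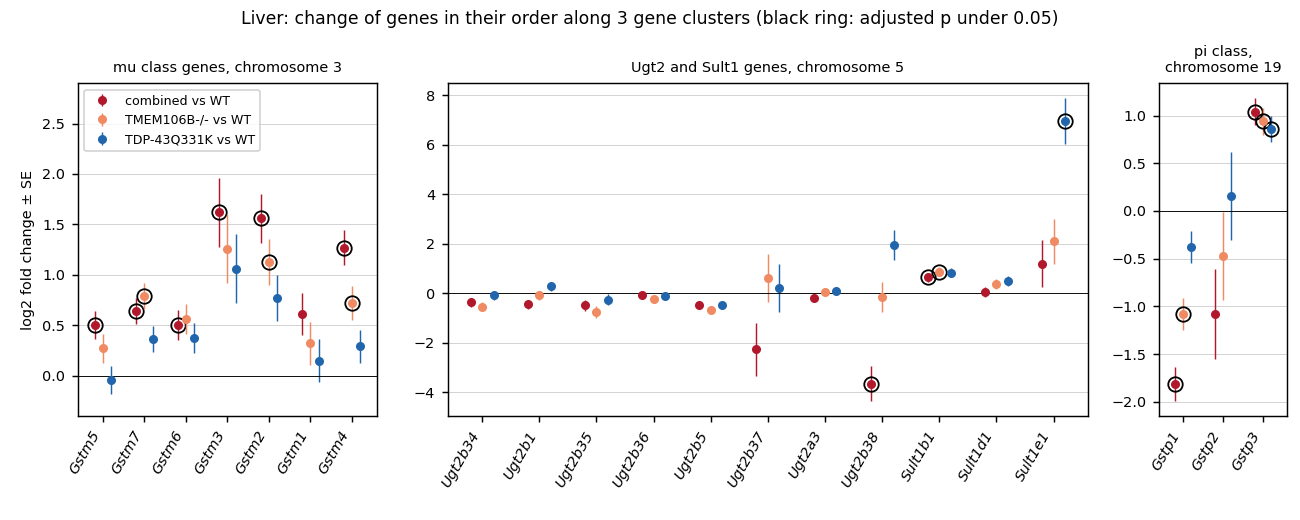
Log2 fold change against WT (SE bars, 4 libraries per genotype) of genes in their order along the Gstm, Ugt2 and Sult1, and Gstp clusters in liver, by genotype, with black rings for an adjusted p under 0.05. All 7 Gstm genes lie above 0 in the combined genotype, whereas Gstp1 (-1.81) and Gstp3 (1.04), close neighbours, lie on opposite sides.

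Of the remaining glutathione transferases, Gstt1, a theta class enzyme, had 326.8, 393.2, 425.4 and 420.5 CPM in the combined genotype and 251.7, 188.0, 241.2 and 289.0 CPM in WT. These groups did not overlap (0.69 ± 0.15, adjusted p = 0.00981). Gstt1 had 393.3, 401.8, 339.8 and 256.0 CPM in TMEM106B-/- and 317.4, 351.4, 339.7 and 343.5 CPM in TDP-43Q331K. All TDP-43Q331K livers thus also lay above all WT livers, and TMEM106B-/- overlapped WT, though edgeR called neither genotype against WT. Mgst3, a membrane-bound enzyme with glutathione peroxidase and leukotriene synthase activity, had 31.7, 45.5, 45.6 and 35.4 CPM in the combined genotype, 22.4, 31.3, 17.6 and 15.3 CPM in TMEM106B-/-, 12.3, 15.2, 10.9 and 11.2 CPM in TDP-43Q331K and 14.5, 15.1, 19.1 and 18.5 CPM in WT. The combined genotype lay above all other livers, and TMEM106B-/- overlapped WT. Mgst3 was 2.35-fold higher in the combined genotype than in WT (1.23 ± 0.19, adjusted p = 0.00111), 3.19-fold higher than in TDP-43Q331K (1.67 ± 0.20, adjusted p = 0.000118) and 1.83-fold higher than in TMEM106B-/- (0.87 ± 0.19, adjusted p = 0.0399). The call against TMEM106B-/- was lost in 8 of 15 alternatives, with adjusted p up to 0.135. Against WT it was 0.37 ± 0.19 in TMEM106B-/- (adjusted p = 0.387) and -0.44 ± 0.19 in TDP-43Q331K (adjusted p = 0.292). The interaction was 1.31 ± 0.27 (adjusted p = 0.0338). The interaction call was lost in 9 of the fits that left out 1 library, with adjusted p up to 0.0845. Mgst1, much the most abundant Mgst gene, averaged 3400 ± 227.4 CPM in the combined genotype and 2688 ± 196.3 CPM in WT (0.34 ± 0.11, adjusted p = 0.0663).

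Gsta1, an alpha class enzyme that is scarce in untreated mouse liver, had 2.15, 4.85, 10.3 and 3.38 CPM in the combined genotype, 1.16, 0.602, 1.12 and 0.661 CPM in TMEM106B-/-, 0.794, 0.763, 1.44 and 0.648 CPM in TDP-43Q331K and 0.311, 1.59, 0.951 and 1.27 CPM in WT. The combined genotype lay above all other livers, and its own libraries were spread widely. It was 5.02-fold higher there than in WT (2.33 ± 0.49, adjusted p = 0.00948), 5.69-fold higher than in TDP-43Q331K (2.51 ± 0.50, adjusted p = 0.0106) and 5.87-fold higher than in TMEM106B-/- (2.55 ± 0.50, adjusted p = 0.0203). The call against TMEM106B-/- was lost in 5 of 15 alternatives (adjusted p up to 0.0679), and the interaction, 2.74 ± 0.69, was not called (adjusted p = 0.0845). Gsta1 shared 89.7% of its 50-base stretches with other genes, mostly Gm3776, so most of its sequence cannot tell it apart from other genes. How reads from such stretches were counted is not known. The abundant alpha class gene Gsta3 averaged 1442 ± 171.0 CPM in the combined genotype and 1324 ± 233.7 CPM in WT (0.12 ± 0.17, adjusted p = 0.733).

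**Figure D4:**
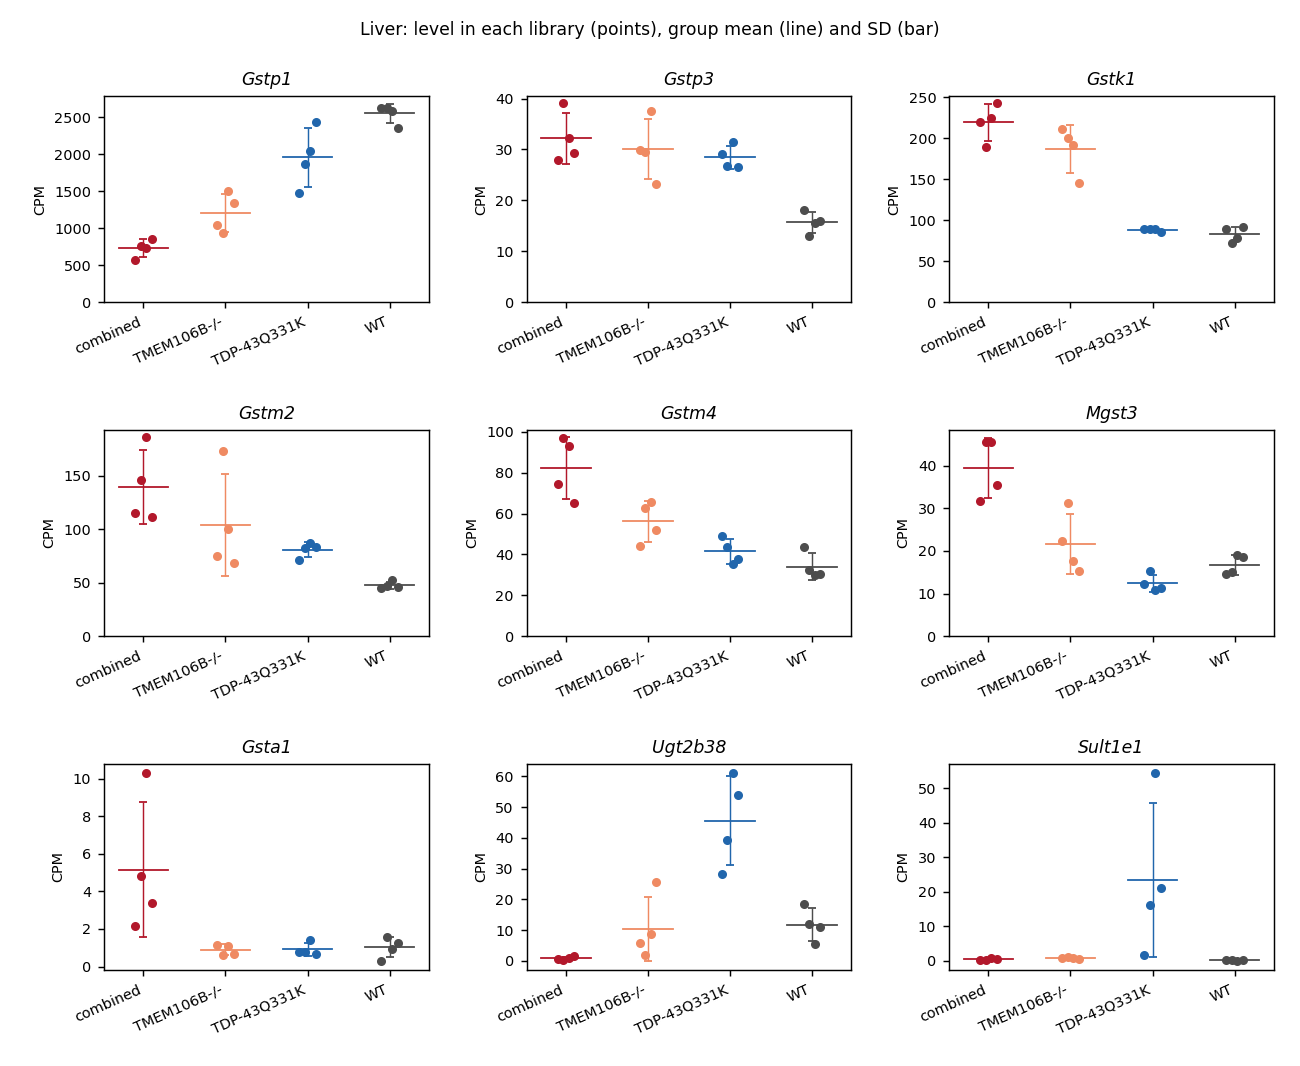
CPM of 9 genes in each of the 16 liver libraries, with group means as lines and SD bars, in the combined genotype, TMEM106B-/-, TDP-43Q331K and WT. Gstk1 is high in both genotypes labelled with TMEM106B loss, Gstp1 is lowest in the combined genotype (562.3 to 856.3 CPM), and Sult1e1 is high in 3 of 4 TDP-43Q331K livers.

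Ugt2b38 (ENSMUSG00000061906, GRCm38 chromosome 5, 87409942 to 87424203, minus strand) moved most among the UDP-glucuronosyltransferases. It had 0.667, 0.482, 1.09 and 1.54 CPM in the combined genotype, 5.93, 1.9, 8.68 and 25.6 CPM in TMEM106B-/-, 28.4, 39.4, 61.0 and 53.8 CPM in TDP-43Q331K and 18.5, 12, 5.59 and 11.0 CPM in WT. The combined genotype lay under all other livers and TDP-43Q331K above all others. Ugt2b38 was 12.5-fold lower in the combined genotype than in WT (-3.64 ± 0.70, adjusted p = 0.00733), 48.6-fold lower than in TDP-43Q331K (-5.60 ± 0.75, adjusted p = 0.00103) and 11.3-fold lower than in TMEM106B-/- (-3.49 ± 0.70, adjusted p = 0.0298). The last of these calls was lost in 9 of 15 alternatives, among them limma-voom and each combined genotype replicate left out (adjusted p up to 0.123), with log2 fold changes of -3.84 to -2.42 over the 15. TDP-43Q331K against WT gave 1.96 ± 0.62 and was not called (adjusted p = 0.187), and TMEM106B-/- against WT gave -0.15 ± 0.60 (adjusted p = 0.933). The interaction was -5.45 ± 0.93 (adjusted p = 0.0178), so the change with TMEM106B loss differed between the TDP-43Q331K and the WT background. That call was lost without combined genotype replicate 2 and without the 3 livers of high Saa1, an alternative chosen after seeing the data, with adjusted p up to 0.0552. Ugt2b38 shared 37.4% of its 50-base stretches with other genes, mostly Ugt2b5, and Ugt2b5, the most abundant gene of the family, averaged 727.6 ± 103.9 CPM in the combined genotype and 1006 ± 156.2 CPM in WT (-0.47 ± 0.16, adjusted p = 0.0851).

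Of the 7 tested Ugt2b genes Ugt2b38 was the 1 that fell in the combined genotype against WT, and none rose (median -0.47). Of all tested genes 2.85% fell and 4.19% rose in that comparison. In the combined genotype Ugt2b1 was under its TDP-43Q331K level (-0.72 ± 0.18, adjusted p = 0.0345), with 197.6, 186.7, 231.2 and 254.5 CPM against 348.6, 420.8, 251.9 and 414.7 CPM, and the groups overlapped by 1 library of each. This call was lost in 8 of 15 alternatives, with adjusted p up to 0.12. Ugt1a5 had 16.1, 16.8, 23.6 and 10.4 CPM in the combined genotype and 10.4, 4.18, 6.43 and 5.2 CPM in WT (1.35 ± 0.38, adjusted p = 0.0459), a call lost in 9 of 15 alternatives. It had 13.0, 21.3, 17.8 and 19.5 CPM in TMEM106B-/- and 14.6, 11.4, 3.33 and 8.46 CPM in TDP-43Q331K. The TMEM106B-/- livers thus all lay above WT, with a mean of 8.12 CPM per kb against 7.59 in the combined genotype, though edgeR did not call Ugt1a5 there. The Ugt1a genes share their last exons, and Ugt1a5 shared 64.0% of its 50-base stretches with other genes, so the assignment of reads among them is uncertain.

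Sult1e1 (ENSMUSG00000029272, GRCm38 chromosome 5, 87575969 to 87591594, minus strand), the estrogen sulfotransferase, was high in TDP-43Q331K livers. It had 0.279, 0.241, 0.702 and 0.518 CPM in the combined genotype, 0.904, 1.09, 0.732 and 0.542 CPM in TMEM106B-/-, 1.67, 16.2, 54.4 and 21.2 CPM in TDP-43Q331K and 0.294, 0.185, 0.028 and 0.254 CPM in WT. The 4 TDP-43Q331K livers lay above all others, though their own values ran from 1.67 to 54.4 CPM. The WT libraries held 47 counts of Sult1e1 in all, and the TDP-43Q331K libraries 5468. Sult1e1 rose in TDP-43Q331K against WT (6.95 ± 0.93, adjusted p = 0.0103), and was 53.6-fold under the TDP-43Q331K level in the combined genotype (-5.74 ± 0.86, adjusted p = 0.00235). The combined genotype against WT gave 1.20 ± 0.96 (adjusted p = 0.504) and TMEM106B-/- against WT 2.11 ± 0.91 (adjusted p = 0.292). The interaction was -7.85 ± 1.22 (adjusted p = 0.0111). The TDP-43Q331K call against WT was lost under limma-voom, with only the compared groups, without WT replicate 2 or 3 and without the 3 livers of high Saa1 (adjusted p up to 0.126), and the interaction under limma-voom and without those 3 livers (up to 0.152).

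The counterpart was Sult3a1, a sulfotransferase known to be far higher in female than in male mouse liver. It had 2.9, 0.663, 0.702 and 0.138 CPM in the combined genotype, 0.168, 0.358, 0.0935 and 0.0265 CPM in TMEM106B-/-, 0.0162, 0.0166, 0 and 0.0452 CPM in TDP-43Q331K and 0.0173, 0.074, 0 and 0 CPM in WT. It stayed far below the main sulfotransferases everywhere, and it passed the filter on low counts only through libraries labelled with TMEM106B loss, so its place among the genes called higher is not independent of that filter. The 4 livers held 284 counts in the combined genotype, 38 in TMEM106B-/-, 5 in TDP-43Q331K and 5 in WT. All 4 livers of the combined genotype lay above every TDP-43Q331K and WT liver. Because of that filter the difference is given as a description, with no test.

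Sult1b1, which sulfates thyroid hormones and phenols, had 25.5, 22.5, 27.5 and 29.3 CPM in the combined genotype, 32.6, 38.9, 29.7 and 21.1 CPM in TMEM106B-/-, 27.7, 30.7, 24.7 and 35.8 CPM in TDP-43Q331K and 15.9, 12.9, 16.5 and 21.2 CPM in WT. WT was lowest, and it overlapped TMEM106B-/- by 1 library of each. The log2 fold change against WT was 0.66 ± 0.18 in the combined genotype (adjusted p = 0.0329), 0.88 ± 0.18 in TMEM106B-/- (adjusted p = 0.0242) and 0.84 ± 0.18 in TDP-43Q331K, which missed the threshold (adjusted p = 0.0567). Both calls were lost in 8 of 15 alternatives. The abundant Sult1a1 averaged 313.9 ± 40.4 CPM in the combined genotype, 417.5 ± 103.9 in TMEM106B-/-, 293.4 ± 38.4 in TDP-43Q331K and 267.7 ± 22.0 in WT, and its 0.64 ± 0.15 in TMEM106B-/- against WT was not called (adjusted p = 0.0547). Sult2a8 averaged 419.2 ± 70.2 CPM in the combined genotype and 549.7 ± 65.1 CPM in WT (-0.39 ± 0.17, adjusted p = 0.175).

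Against TDP-43Q331K, the comparison that sets the TMEM106B alleles apart on the mutant background, 6 of the 49 genes rose and 4 fell in livers of the combined genotype, where 2.17% of all tested genes rose and 1.77% fell. The genes that rose were Gsta1, Gstk1, Gstm4, Gstm5, Mgst3 and Sult3a1, and those that fell were Gstp1, Ugt2b1, Ugt2b38 and Sult1e1. The Gstm5 call was lost in 10 of 15 alternatives (adjusted p up to 0.106), among them the replicate block and each TDP-43Q331K replicate left out, and Sult3a1 is subject to the limit of the filter given above. Against TMEM106B-/-, 2 rose (Gsta1 and Mgst3) and 1 fell (Ugt2b38) in the combined genotype, where 0.485% of all tested genes rose and 0.551% fell. The interaction was called higher for Mgst3 and lower for Ugt2b38 and Sult1e1, 3 of the 49 genes, where 0.341% of all tested genes were called higher and 0.347% lower.

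Markers of other liver cells stood beside these changes as follows. Among the 8 hepatocyte markers Apoa1 (-0.39 ± 0.11) and Serpina1c (-0.83 ± 0.15) fell in the combined genotype against WT. The 7 cholangiocyte markers summed to 29.2 to 41.2 CPM in the combined genotype, 33.2 to 91.6 in TMEM106B-/-, 40.7 to 53.6 in TDP-43Q331K and 35.1 to 86.1 in WT. The 6 stellate cell markers summed to 196.4 to 220.8 CPM in the combined genotype and 167.4 to 193.4 CPM in WT, and the 6 adipocyte markers to 3.16 to 6.02 CPM and 0.49 to 2.8 CPM, with the adipocyte marker Retn called higher (4.43 ± 0.99, adjusted p = 0.0126). The 6 sinusoidal endothelial markers summed to 112.4 to 153.7 CPM in the combined genotype, 97.8 to 119.8 in TMEM106B-/-, 118.2 to 131.2 in TDP-43Q331K and 124.9 to 185.2 in WT, so TMEM106B-/- lay wholly under WT, and Clec4g of this list fell there (-0.64 ± 0.14, adjusted p = 0.0363). The fibroblast collagens rose in the combined genotype against WT, Col1a1 by 1.60 ± 0.30 (adjusted p = 0.00405) and Col1a2 by 0.99 ± 0.19 (adjusted p = 0.00439). The 7 Kupffer cell markers summed to 119.9 to 188.8 CPM in the combined genotype, 114.2 to 162.6 in TMEM106B-/-, 84.9 to 152.4 in TDP-43Q331K and 126.1 to 262.0 in WT. Their part in the results was not tested. In bulk RNA fewer cells of a type and less RNA per cell cannot be told apart.

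The counts for genes that supply, use and undo the conjugates stand beside the 7.04% of all tested genes that were called either way in livers of the combined genotype against WT, and nothing particular to these lists is read from them. In that comparison 1 of 9 tested genes of glutathione synthesis and supply rose, Gpx4, the glutathione peroxidase that reduces lipid peroxides (0.41 ± 0.10, adjusted p = 0.0225). Among the genes of UDP-glucuronate supply the UDPase Entpd5 rose (0.56 ± 0.16, adjusted p = 0.0378). Of 9 genes of PAPS synthesis none was called by edgeR, with 3 at an unadjusted p under 0.05. Of 7 genes that reverse conjugation 1 rose, the lysosomal sulfatase Arsg (1.42 ± 0.24, adjusted p = 0.00186). Of 9 export pumps 1 fell, Abcc5 (-0.55 ± 0.15, adjusted p = 0.0389). None of 19 other conjugation enzymes was called by edgeR, with 8 at an unadjusted p under 0.05. Of 16 regulators 1 fell, Arnt, the partner of the aryl hydrocarbon receptor (-0.52 ± 0.09, adjusted p = 0.00278).

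Against TDP-43Q331K, where 3.94% of all genes were called either way, livers of the combined genotype had higher Gpx4 (0.63 ± 0.10, adjusted p = 0.00219), Arsg (1.20 ± 0.24, adjusted p = 0.0103) and the quinone reductase Nqo1 (1.18 ± 0.30, adjusted p = 0.0356), and lower Arnt (-0.46 ± 0.09, adjusted p = 0.0102). Against TMEM106B-/- they had higher Ephx1, the microsomal epoxide hydrolase (0.72 ± 0.16, adjusted p = 0.0376), and lower Arnt (-0.43 ± 0.09, adjusted p = 0.0298). In TDP-43Q331K against WT Tpmt, the thiopurine methyltransferase, rose (0.60 ± 0.12, adjusted p = 0.0472). In TMEM106B-/- against WT no gene of these lists was called by edgeR, with 3, 1, 1, 3, 0, 6 and 4 at an unadjusted p under 0.05 in the order of the lists above.

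In cortex the sums of the families lay close together. The summed glutathione transferases were at 198.5 ± 14.4 CPM per kb in the combined genotype, 198.2 ± 6.86 in TMEM106B-/- (SD, n = 5 each), 202.5 ± 8.24 in TDP-43Q331K (n = 6) and 206.2 ± 8.43 in WT (n = 5). The mu class held 50.8%, 50.7%, 50.9% and 50.8% of these sums. The summed sulfotransferases were at 132.2 ± 5.76, 132.9 ± 6.19, 125.8 ± 9.19 and 131.1 ± 6.51 CPM per kb in the same order, and Sult4a1 made up 96.0%, 95.9%, 95.8% and 96.5% of them. Mgst3, which changed in liver, averaged 46.1 ± 3.28 CPM in the combined genotype, 44.9 ± 2.05 in TMEM106B-/-, 45.5 ± 4.34 in TDP-43Q331K and 47.2 ± 1.95 in WT cortex, and no comparison called it.

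Of the 21 genes tested in cortex, 2 rose and none fell in TMEM106B-/- against WT, where 2.78% of all 21248 tested genes rose and 2.39% fell. In the combined genotype against WT 1 rose and none fell, where 2.53% of all tested genes rose and 2.36% fell. None was called by edgeR in TDP-43Q331K against WT (1 at an unadjusted p under 0.05, 0 called by DESeq2 or limma-voom), where 0.0% of all genes were called. None was called in the combined genotype against TDP-43Q331K (2 unadjusted, 0 by DESeq2 or limma-voom), where 0.8% of all genes rose and 0.602% fell. Against TMEM106B-/- none was called either (0 unadjusted), nor in the interaction (2 unadjusted), and both had 0.0% of all genes called and 0 members by DESeq2 or limma-voom.

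Gstm2 had 1.33, 1.74, 1.64, 1.88 and 0.965 CPM in cortices of the combined genotype, 1.72, 2.78, 1.33, 1.22 and 2.57 CPM in TMEM106B-/-, 0.509 to 1.23 CPM with a median of 0.885 in TDP-43Q331K and 0.46, 0.854, 0.508, 0.663 and 1.06 CPM in WT. All TMEM106B-/- cortices lay above all WT cortices, and the combined genotype overlapped WT by 1 library of each. Gstm2 was 2.73-fold higher in TMEM106B-/- than in WT (1.45 ± 0.28, adjusted p = 0.00343) and 2.13-fold higher in the combined genotype than in WT (1.09 ± 0.29, adjusted p = 0.0316). The first call held in all 17 alternatives. The second was lost in 8 of 17, with adjusted p up to 0.0871, among them each of WT replicates 1 to 4 left out and the fit without the cortices of extreme meningeal markers. Gstm2 was also called higher in liver in both genotypes, with the losses given above for TMEM106B-/-, and its level per kb there was far higher.

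Gsta4, the alpha class enzyme that conjugates the lipid peroxidation product 4-hydroxynonenal, had 13.7, 14.0, 15.6, 13.0 and 17.6 CPM in the combined genotype, 17.3, 20.0, 13.9, 17.1 and 15.8 CPM in TMEM106B-/- and 10.8, 13.5, 14.4, 12.3 and 14.1 CPM in WT cortex. TMEM106B-/- was 1.29-fold higher than WT (0.37 ± 0.10, adjusted p = 0.0247) with overlapping libraries, and the call was lost in 6 of 17 alternatives. Gstp1 had 36.4, 31.7, 40.3, 44.2 and 50.2 CPM in the combined genotype, 40.6, 39.4, 43.4, 41.0 and 37.9 CPM in TMEM106B-/- and 49.3, 46.9, 50.0, 47.2 and 51.5 CPM in WT. TMEM106B-/- lay under WT in every library. The values, -0.28 ± 0.08 in TMEM106B-/- (adjusted p = 0.061) and -0.27 ± 0.08 in the combined genotype (adjusted p = 0.0658), missed the threshold, unlike in liver, and the difference between the tissues was not tested.

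**Figure D5:**
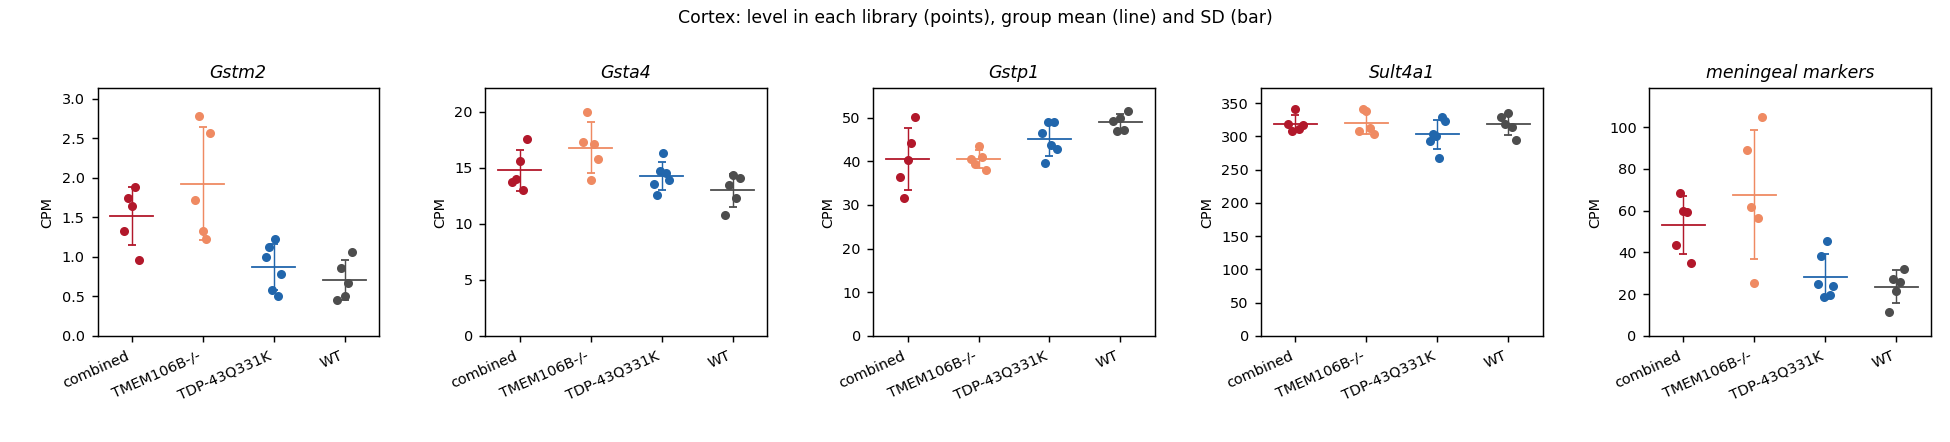
CPM of Gstm2, Gsta4, Gstp1 and Sult4a1 in each of the 21 cortex libraries, and the summed CPM of 6 meningeal fibroblast markers, with group means as lines and SD bars, in the combined genotype, TMEM106B-/-, TDP-43Q331K and WT. Gstm2 is higher in TMEM106B-/- (1.22 to 2.78 CPM) than in WT (0.46 to 1.06 CPM), and the meningeal sum is spread most in TMEM106B-/-.

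Markers of other tissue moved with the same groups in cortex. The 6 meningeal fibroblast markers summed to 34.7 to 68.7 CPM in the combined genotype, 25.4 to 105.1 in TMEM106B-/-, 18.6 to 45.2 in TDP-43Q331K and 11.3 to 32.2 in WT, none of them at 0, and 4 of the 6 rose in TMEM106B-/- against WT (Slc47a1, Col1a1, Col1a2 and Slc22a6). In the combined genotype the sum lay above WT without overlap, but no gene of this list was called against WT. The 6 oligodendrocyte markers summed to 1083 to 2429 CPM in the combined genotype, 993.7 to 1430 in TMEM106B-/-, 1883 to 3044 in TDP-43Q331K and 2800 to 3181 in WT, and all 6 fell in both genotypes labelled with TMEM106B loss. The 6 astrocyte markers summed to 1133 to 1260 CPM in the combined genotype, 976.4 to 1343 in TMEM106B-/-, 1051 to 1173 in TDP-43Q331K and 986.7 to 1135 in WT. Of this list Slc1a3 rose against WT in TMEM106B-/- (0.23 ± 0.05, adjusted p = 0.00923) and in the combined genotype (0.21 ± 0.05, adjusted p = 0.0197). Gja1 rose in the combined genotype (0.33 ± 0.09, adjusted p = 0.034). Without the cortices of lowest and highest meningeal sum, the log2 fold change in TMEM106B-/- against WT was 1.19 for Gstm2 (adjusted p = 0.0331), against 1.45 with all libraries, and 0.33 for Gsta4 (adjusted p = 0.08), against 0.37. Leaving out WT replicate 1 alone gave 0.31 for Gsta4 (adjusted p = 0.0717). The part of these markers in the Gstm2, Gsta4 and Gstp1 results was not tested.

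Among the supply and export genes in cortex, where 5.16% of all genes were called in TMEM106B-/- against WT and 4.89% in the combined genotype against WT, TMEM106B-/- had lower Chac1 (-0.29 ± 0.08), Impad1 (-0.18 ± 0.04) and Arsg (-0.70 ± 0.12, adjusted p = 0.00186), and higher Txnrd1 (0.19 ± 0.05), Slc26a2, a sulfate transporter (0.85 ± 0.23), and Ephx2, the soluble epoxide hydrolase (0.22 ± 0.06). Arsg thus fell in TMEM106B-/- cortex and rose in livers of the combined genotype. In the combined genotype against WT, Papss1, a PAPS synthase (-0.20 ± 0.05), Impad1 (-0.16 ± 0.04) and the histamine methyltransferase Hnmt (-0.29 ± 0.08) fell.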

How the data were processed

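The deposited counts are whole-number raw counts per gene for 16 liver and 21 cortex libraries, with no normalization. Per the submitters' processing notes, reads passed through Trim Galore, cutadapt and FastQC on builds GRCm38 and mm10, and per the labels the kit was directional. Sources used here name no aligner, counting program or strand setting. Among the cortex columns 1 matched no labelled sample and was left out. The labels do not say that libraries came from separate animals, so the spread behind the p-values may be technical.

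Liver and cortex were fitted separately, all 4 genotypes together, in R 4.3.3 with edgeR 4.0.16: filterByExpr (minimum count 10, minimum total 15; 16710 genes in liver, 21248 in cortex), TMM, and the robust quasi-likelihood test with 12 and 17 residual degrees of freedom. All tests were two-sided with Benjamini-Hochberg adjustment over every gene of a comparison, and an adjusted p under 0.05 was called. CPM are counts scaled by TMM library size. Libraries of a genotype varied by a coefficient of 0.235 in liver and 0.103 in cortex beyond counting error.

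The members, the pathway and marker lists and the tests were chosen with earlier results of these data known. The text names the markers given for the set, every called member, the 3 most abundant members of each family and tissue, and the called genes of the pathway lists (at most 6 per comparison). A pathway gene and a marker gene are not reported here. The motif TGANTCAGC was added after the sequences were seen. The upstream sequences are those of RefSeq (build GRCm38.p6), which matched 58 of the 66 genes by symbol. Alternatives were DESeq2 1.42.0, limma-voom with quality weights (limma 3.58.1), RLE size factors, no filter, replicate number as a block, a fit restricted to the groups compared and each library left out. A pair was chosen after seeing the data: without the 3 livers of high acute phase transcripts, and without the cortices of lowest (WT replicate 1) and highest (TMEM106B-/- replicate 5) summed meningeal markers. The fits were tested on simulated data. No libraries of the same genotype and tissue were duplicates of each other, and pairs of different genotypes were not checked.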

Additional observations from a re-analysis of the deposited data

Results flagged for a closer look

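The change with TMEM106B loss in liver differed between the TDP-43Q331K and the WT background, by the interaction test in edgeR, for 3 genes. The log2 interaction was -5.45 for Ugt2b38, 1.31 for Mgst3 and -7.85 for Sult1e1.

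Single libraries stood apart from their group, by the gap to the nearest library over the range of the group, in 6 of 144 groups checked, and chance alone gives such a gap in about 1 group in 20. They were Gstk1 in TDP-43Q331K liver replicate 4 (lowest, 85.0 CPM), Gstm4 in WT liver replicate 1 (highest, 43.7 CPM), Gstp1 in WT liver replicate 4 (lowest, 2357 CPM), Sult1a1 in combined genotype liver replicate 2 (lowest, 254.0 CPM), Ugt2b1 in WT liver replicate 1 (highest, 409.7 CPM) and Sult2b1 in combined genotype cortex replicate 5 (highest, 8.89 CPM).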

How the results depend on the processing

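Of 685 alternative values for the 44 called results of named genes, 552 kept the call, 133 lost it and 0 reversed. The cause of the losses was not tested. Among the kept values are those of Sult3a1 in the combined genotype against WT and against TDP-43Q331K (14 of 14 each). They carry the limit of the filter given above and are no support for its calls. The number of all genes called under each alternative is not given here, so the counts that follow are not read as results about the members. In liver the members called in TMEM106B-/- against WT numbered 7, against 14 under DESeq2, 11 under limma-voom, 3 with only the compared groups and 4 to 10 with a library left out (4 without WT replicate 2 or 3 or TMEM106B-/- replicate 2 or 3). In TDP-43Q331K against WT the number was 2, against 4 under DESeq2, 4 under limma-voom, 1 without the livers of high acute phase transcripts and 0 to 3 with a library left out (0 without WT replicate 2 or 3, 1 without TDP-43Q331K replicate 1 or 4). In the combined genotype the number against WT was 16 and 12 to 14 with a library left out. Against TDP-43Q331K it was 10, against 16 under limma-voom and 8 to 10 with a library left out. Against TMEM106B-/- it was 3, against 5 under DESeq2, 0 with only the compared groups, 1 without the high acute phase livers and 0 to 4 with a library left out (0 without TMEM106B-/- replicate 4 or combined replicate 3, 1 without combined replicate 2 or 4). The interaction gave 3, against 7 under DESeq2, 7 under limma-voom and 1 to 5 with a library left out (5 without TMEM106B-/- replicate 4, 1 without combined replicate 2).

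In cortex TMEM106B-/- against WT gave 2, against 1 without the cortices of extreme meningeal markers and 1 to 4 with a library left out (1 without WT replicate 1 or 4 or TMEM106B-/- replicate 1 or 2, 4 without TMEM106B-/- replicate 3). The combined genotype against WT gave 1, against 2 under DESeq2, 2 under limma-voom, 2 with the replicate block, 0 without the extreme cortices and 0 to 2 with a library left out (0 without any of WT replicates 1 to 4 or combined replicates 2 to 4, 2 without combined replicate 5). Against TDP-43Q331K it gave 0, and 0 to 3 with a library left out (3 without combined replicate 5). The other cortex comparisons gave 0 under every alternative run.

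With replicate number as a block the liver counts were 5, 2, 14, 9, 4 and 3 in the order above and the cortex counts 3 for TMEM106B-/- and 2 for the combined genotype against WT. Same-numbered libraries did not deviate together (median correlation -0.08 over 24 pairs in liver and 0.04 over 30 in cortex), and 2 of 16 liver and 4 of 20 cortex libraries correlated best with their own number, so the numbers were not taken to pair samples. Counts of lowly expressed genes limit Sult3a1 and Sult1e1 in WT.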
